A study of Mus musculus with 32 samples.

Results

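The question was which genes of intestinal stem cells answered a high-fat diet differently in mice without Ppara than in wild-type mice. The difference was measured as the diet effect (high-fat minus control) in PparA less the diet effect in WT, called the difference in diet response below. It rests on 16 of the series' 32 libraries, 4 in each of 4 groups: WT on control diet, WT on high-fat diet, PparA on control diet and PparA on high-fat diet. The labels give the WT mice as wild type and the PparA mice as Ppara-null. The strain label was C57BL6 for every group. Cells were taken from isolated crypts, stained with CD326 (an epithelial surface protein) and the viability dye DAPI, and sorted for high GFP into a lysis reagent. Polyadenylated RNA was then counted near the 3' end of transcripts (3' digital gene expression). The sources used here do not state how the Ppara allele was made, which reporter gave the GFP, what the diet held, how long it lasted or how old the mice were. Whether the 4 libraries of a group are 4 separate animals is not stated either, and p-values measure the spread between these samples. By the sex-linked transcripts given below, each group holds libraries of both sexes and so of more than 1 animal.

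PPARα, the product of Ppara, and PPARδ, the product of Ppard, are nuclear receptors that bind fatty acids. Each pairs with a retinoid X receptor on DNA and turns on genes for taking up, carrying and burning fatty acids. In the small intestine, stem cells at the crypt base carry Lgr5 and Olfm4 and renew the epithelium, beside Paneth cells that secrete defensins and lysozyme. Mitochondrial β-oxidation shortens fatty acids in repeated cycles of dehydrogenation, hydration, dehydrogenation and thiolysis, after Cpt1a has passed them to carnitine for entry into mitochondria.

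The 16 libraries held 622663 to 724155 counts and 11683 to 12192 genes with at least 1 count. Library numbers fall into 4 runs of 8 consecutive numbers, each run holding every group of the series once, and values per library are listed below in the order of runs 1 to 4. Runs 1 and 3 had 479 to 807 CPM (counts per 1e+06) of the female-specific Xist and no count of the Y-linked Ddx3y, and runs 2 and 4 had 14.6 to 39.9 CPM of Ddx3y and at most 9.98 CPM of Xist. The place of a group within its run was fixed in PparA, so that place and diet cannot be told apart there. In WT, control came before high-fat in runs 1 to 3 and after it in run 4. Stem cell markers summed to 10210 to 16320 CPM over the 16 libraries, led by Olfm4. Stromal and endothelial markers summed to 3.109 to 19.47 CPM, with no count of 7 of 13 members (Col1a1, Pdgfra and Kdr among them), and red blood cell markers to at most 10.17 CPM. Lymphocyte markers averaged 6.402 CPM in WT control libraries and reached 101.6 CPM in 1 PparA control library, with Cd3d at 0 throughout. Ppara itself was too low to check the genotype label, with 0 to 7.282 CPM in WT and 0 to 4.988 CPM in PparA, and was not tested.

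One pair of libraries went against its diet label at fatty acid oxidation genes. In run 1 the PparA control library (number 5) exceeded the PparA high-fat library (number 6) at 16 of 20 mitochondrial fatty acid oxidation genes tested, with a median diet difference of −0.19 (log2). The other 3 PparA runs had 14 to 16 of the 20 genes higher on the high-fat diet, with medians of 0.41, 0.62 and 0.46. At Rpl28, Rps4x and Trmt112, described next, libraries 5 and 6 fell with the other libraries of their own label. Those genes were called with libraries 5 and 6 under these labels, so they cannot serve as a check of the labels. Values that run 1 moves are given with and without it below.

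Of 5872 genes tested, 22 differed in their diet response (0.375% of genes tested), 14 with a higher response in PparA (0.238%) and 8 with a lower one (0.136%). A gene was called at a Benjamini-Hochberg adjusted p under 0.05 in edgeR's quasi-likelihood test with the run as a factor. At an unadjusted p under 0.05 there were 566 genes (9.64%). By the size and sign of the 2 diet effects, 10 of the 22 responses were gained in PparA, 1 was lost, 6 were turned and 5 were intermediate. A gained response is one whose WT effect was under 0.5 times the PparA effect, and a lost response the converse. A turned response had opposite signs with both effects of at least 0.5 (log2). Intermediate responses were the rest, and they too had opposite signs in the 2 genotypes, with an effect under 0.5 in size. Signs also differed for some gained responses and for the lost one. These classes describe fitted values and were not tested. Of the 22 genes, 17 were not pseudogenes. The direction of difference was the same in each of the 4 runs for 19 genes, and the other 3 had counts in 1 run only. As the genes were called on these same runs, that agreement is no separate support. Its share over all genes tested was not counted. The diet effect itself was called for 7 genes in WT (0.119%), all higher, and for 18 genes in PparA (0.307%), 15 of them higher. Without run 1 the difference in diet response was called for 5 of 5894 genes, all among the 22, with Rpl28, Rps4x, Hint1 and Cox6a1 among them. Without run 4 it was called for 46 genes, 15 of them among the 22.

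**Figure D1:**
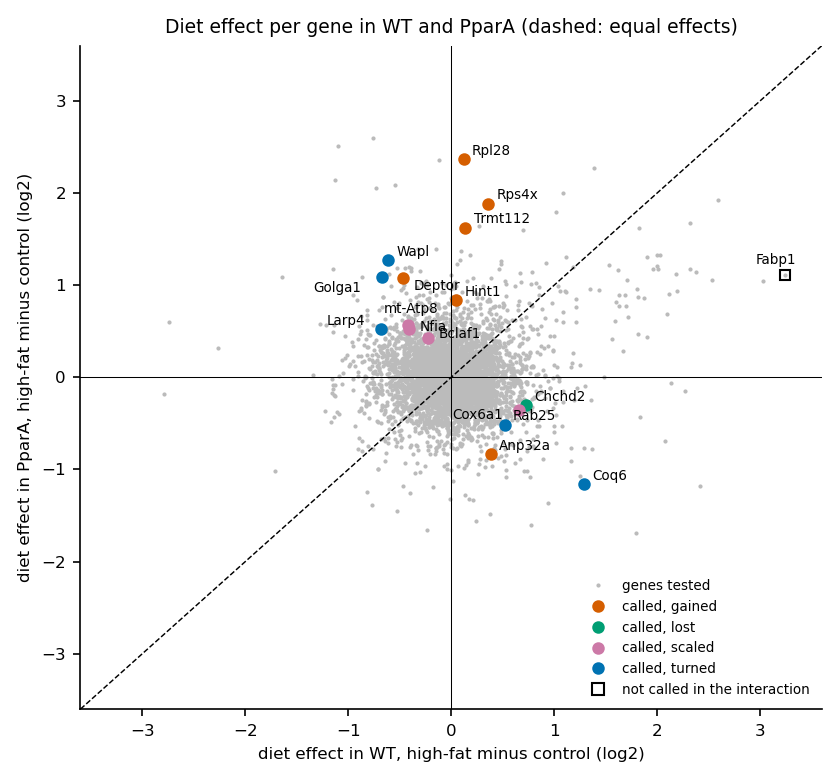
Diet effect in WT (x axis, log2) against diet effect in PparA (y axis, log2) for genes tested, with 16 of the 17 called genes that are not pseudogenes coloured by class (scaled marks the intermediate ones), and Fabp1 as an open square. The dashed line marks equal effects; Rpl28, Rps4x and Trmt112 sit near 0 on the WT axis and between 1.62 and 2.37 on the PparA axis, while Fabp1 lies at 3.24 on the WT axis and 1.11 on the PparA axis.

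The gained responses were led by 2 ribosomal protein genes. Rpl28 and Rps4x, which encode proteins of the large and the small ribosomal subunit, rose on the high-fat diet in PparA. Trmt112, an activating partner of methyltransferases that act on tRNA, rRNA and proteins, rose with them, as did Hint1, a nucleotide hydrolase. In WT the diet effects of these 4 genes were 0.05 to 0.36 (log2) and none was called.

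Rpl28 (ENSMUSG00000030432) lies on chromosome 7 from 4792874 to 4795066 on the plus strand (GRCm38, the assembly that mm10 names). WT control libraries held 1513, 2291, 2750 and 2444 CPM, and WT high-fat libraries 1956, 2749, 3183 and 1851 CPM. PparA control libraries held 1010, 1396, 1504 and 1349 CPM, and PparA high-fat libraries 4346, 6117, 9561 and 7617 CPM. The WT groups overlapped, and every PparA high-fat library lay above every other library of the series, the highest of which reached 3635 CPM. WT was higher on the high-fat diet in runs 1 to 3 (by 0.37, 0.26 and 0.21, log2). It was lower in run 4 (by −0.40), the run with the reversed order of WT libraries. The diet effect was 0.12 ± 0.13 (SE, log2) in WT and 2.37 ± 0.14 in PparA, and their difference was 2.24 ± 0.18 (edgeR adjusted p = 5.8e-09). PparA also stood below WT on the control diet, by −0.76 ± 0.13 (edgeR adjusted p = 0.00106; 0.903% of genes tested were called on that diet), and above it on the high-fat diet, by 1.48 ± 0.13 (1.58% called).

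Rps4x (ENSMUSG00000031320) lies on chromosome X, between 102184941 and 102189394 on the minus strand. Control libraries held 6764, 6897, 6449 and 9653 CPM in WT and 7599, 7293, 8131 and 6686 CPM in PparA. The PparA high-fat libraries averaged 27360 ± 3841 CPM (SD, n = 4) and ranged from 23790 to 31500 CPM, above each of the other 28 libraries (5313 to 15460 CPM). In WT the diet difference changed sign in run 4. Rps4x was higher on the high-fat diet in runs 1 to 3 (by 0.68, 0.63 and 0.86, log2) and lower in run 4 (by −0.86). Run 4 alone had the reversed order of WT libraries, so that place and run 4 cannot be told apart. Fitted by place, the second WT library exceeded the first by 0.75 ± 0.10 (edgeR adjusted p = 2.65e-05). That fit had no term for diet, and the second WT library was the high-fat one in runs 1 to 3. A diet effect in WT therefore enters its values, and the fit cannot separate place from diet. The difference in diet response was 1.53 ± 0.23 (edgeR adjusted p = 0.000397), 1.07 ± 0.14 without run 4 and 1.69 ± 0.29 without run 1 (adjusted p = 0.000464 and 0.0162). Of 15 genes called by place in WT, Rps4x alone was also among the 22. At an unadjusted p under 0.05 in the same edgeR test, others of the 22 differed by place too. Cox6a1 (0.58 ± 0.17), Anp32a (0.52 ± 0.15) and Rpl28 (0.31 ± 0.12) were among them, and Hint1 (0.09 ± 0.10) and Trmt112 were not. Of these, Cox6a1 was higher on the diet in all 4 WT runs, by 0.15 (log2) in run 4, and so went against place there. What place contributes in PparA was not tested.

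Trmt112 (chromosome 19, 6909698 to 6911049, plus strand) held 70.15, 50.91, 79.29 and 67.48 CPM in WT control and 69.17, 65.26, 71.16 and 87.39 CPM in WT high-fat libraries. With the diet it went in PparA from 74.62, 57.13, 67.44 and 73.25 CPM to 243.4, 181.3, 212.8 and 202.9 CPM. Only the PparA high-fat libraries stood apart, and no other library of the series exceeded 101.8 CPM. The difference in diet response was 1.49 ± 0.22 (edgeR adjusted p = 0.000397), and it was not called without run 1 (adjusted p = 0.0598). Between places in WT, Trmt112 differed by −0.06 ± 0.16.

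Hint1 (chromosome 11, 54866383 to 54870501) had 332.7 to 390.6 and 331.1 to 435.6 CPM in WT on the control and the high-fat diet, against 306.3 to 451.2 and 594.2 to 734.9 CPM in PparA. Its difference was 0.79 ± 0.14 (edgeR adjusted p = 0.00756), and 0.90 ± 0.16 without run 1 (adjusted p = 0.0269). The highest Hint1 value among the other 28 libraries was 451.2 CPM, below every PparA high-fat library.

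**Figure D2:**
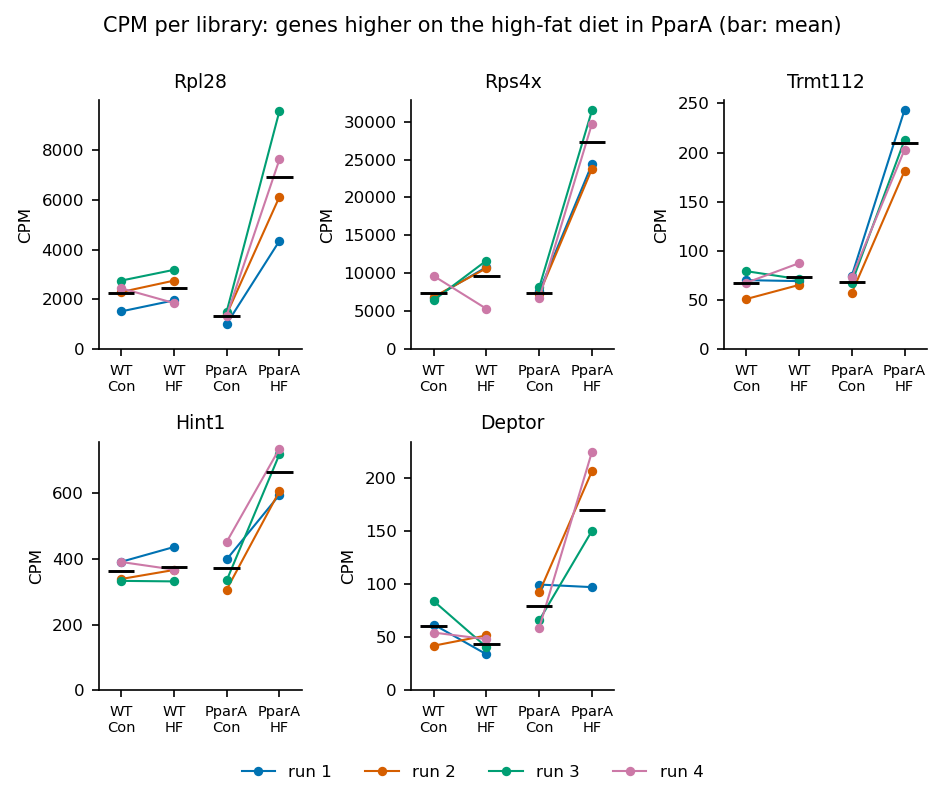
CPM (y axis) per library of Rpl28, Rps4x, Trmt112, Hint1 and Deptor in the 4 groups, with lines joining the control and high-fat libraries of the same run and black bars at group means. For Rpl28, Rps4x, Trmt112 and Hint1 the 4 PparA high-fat points lie above the other 12 libraries. The WT lines of Rpl28 and Rps4x rise in runs 1 to 3 and fall in run 4.

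Deptor, an inhibitor of mTOR kinase, and Anp32a, a histone-binding inhibitor of phosphatase activity, also had gained responses. Deptor had 61.89, 41.93, 83.96 and 54.28 CPM in WT control and 33.85, 51.6, 40.66 and 48.06 CPM in WT high-fat libraries. PparA control libraries had 99.49, 92.04, 65.83 and 58.6 CPM and PparA high-fat libraries 97.05, 206.2, 150.1 and 224.5 CPM, nearly level in run 1 and higher in the other 3 runs. The difference was 1.55 ± 0.34 (edgeR adjusted p = 0.0357), with diet effects of −0.47 ± 0.26 in WT and 1.08 ± 0.22 in PparA. It was called neither without run 1 nor without run 4 (adjusted p = 0.0684 and 0.17). Anp32a fell in PparA, from 127.5, 119, 139.7 and 76.18 CPM to 74.65, 54.89, 65.98 and 59.86 CPM. WT control libraries had 79.77, 91.34, 80.85 and 92.42 CPM of Anp32a and WT high-fat libraries 119.2, 153.3, 107.5 and 75.74 CPM, higher in 3 runs and lower in run 4. Its difference in diet response was −1.22 ± 0.23 (edgeR adjusted p = 0.0128), and 0.216 was its adjusted p without run 1.

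A few more genes rose with the diet in PparA without a called difference from WT. Tbca, a chaperone of tubulin folding, went from 276.9 to 326.5 CPM on the control to 462.2 to 564.2 CPM on the high-fat diet, ranges that did not overlap, and its diet effect was 0.71 ± 0.12 (edgeR adjusted p = 0.0027). Eif3h, a subunit of a translation initiation factor, and the membrane protein gene Tmem54 had effects of 0.75 and 0.86 (adjusted p = 0.0147 and 0.0223). The differences from WT of these 3 genes were 0.51, 0.47 and 0.61 (adjusted p = 0.263, 0.502 and 0.411).

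Turned responses went up on the high-fat diet in one genotype and down in the other. Rab25, a small GTPase of epithelial membrane recycling, and Coq6, a monooxygenase of ubiquinone synthesis, had higher values on the diet in WT and lower values in PparA. Larp4, an RNA-binding protein that protects mRNA poly(A) tails, Golga1, a golgin of the trans-Golgi network, and Wapl, which releases cohesin from chromatin, had the opposite pattern. Chchd2, a mitochondrial protein that also acts on cytochrome oxidase, was the one gene with a lost response. The diet effects of Rab25, Coq6, Larp4 and Golga1 taken singly were not called in either genotype (edgeR adjusted p = 0.11 to 0.48), whereas Wapl was called in PparA.

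Rab25 (ENSMUSG00000008601, chromosome 3, 88542029 to 88548300, minus strand) had 83.9, 83.85, 83.96 and 76.29 CPM in WT control and 106, 144.2, 119.1 and 102 CPM in WT high-fat libraries. The PparA control libraries had 93.27, 120.6, 85.1 and 120.1 CPM, and PparA high-fat libraries 74.65, 73.18, 74.23 and 71.5 CPM. Groups did not overlap in either genotype, and the direction was the same in all 4 runs, run 4 of WT included. The PparA high-fat libraries were also below the other 28 libraries, whose lowest value was 76.29 CPM. The diet effect was 0.52 ± 0.14 in WT and −0.51 ± 0.14 in PparA, and the difference was −1.03 ± 0.20 (edgeR adjusted p = 0.0128), or −1.16 ± 0.25 without run 1 (adjusted p = 0.0684). Golga1, given below, also had ranges apart in both genotypes. The share of all genes tested with ranges apart was not counted, and these genes had already been called.

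Coq6 (chromosome 12, 84361657 to 84373796) had 37.14, 49.41, 17.1 and 68.95 CPM in WT control and 82.42, 180.6, 106 and 65.54 CPM in WT high-fat libraries. In PparA the control libraries had 46.64, 119, 51.38 and 140.6 CPM and the high-fat libraries 38.82, 49.9, 46.19 and 23.28 CPM. WT was higher on the diet in runs 1 to 3 and nearly level in run 4, and PparA was lower in all 4 runs, with small steps in runs 1 and 3. The difference was −2.45 ± 0.48 (edgeR adjusted p = 0.0148). Without run 1 its adjusted p was 0.0627. By place, in the fit without a term for diet, the second WT library exceeded the first at Coq6 by 1.33 ± 0.33. This was not called (edgeR adjusted p = 0.0843).

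Chchd2 (chromosome 5, 129881156 to 129887470, minus strand) was higher on the high-fat diet in each WT run, from 70.15, 80.86, 45.09 and 74.82 to 113.3, 138.1, 85.68 and 112.1 CPM. PparA went from 83.95, 103.1, 62.62 and 112.8 to 65.69, 108.1, 51.14 and 71.5 CPM, lower in 3 runs and slightly higher in run 2. It was called in WT (0.73 ± 0.15, edgeR adjusted p = 0.0357) and not in PparA (−0.30 ± 0.15, adjusted p = 0.713), and the difference was −1.03 ± 0.21 (adjusted p = 0.025). Without run 1 the difference was −1.04 ± 0.28 (adjusted p = 0.253), and without run 4 it was −0.95 ± 0.24 (adjusted p = 0.0654). It was the only gene called both in the WT diet effect and in the difference.

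Golga1 had 31.63, 22.46, 20.21 and 17.6 CPM in WT control, 16.19, 7.589, 17.43 and 16.02 CPM in WT high-fat, 15.55, 19.04, 12.85 and 10.25 CPM in PparA control and 23.89, 33.27, 37.94 and 28.27 CPM in PparA high-fat libraries. Larp4 was lower on the diet in all 4 WT runs (46.64 to 55.4 against 24.69 to 36.79 CPM) and higher in all 4 PparA runs (25.69 to 46.02 against 37.94 to 56.55 CPM). For Wapl the WT ranges were 20.54 to 27.99 and 8.713 to 21.25 CPM, and the PparA ranges 9.634 to 26.43 and 32.85 to 54.89 CPM. All 3 genes kept these directions within every run of both genotypes. Their differences in diet response were 1.76 ± 0.40, 1.21 ± 0.26 and 1.89 ± 0.42 (edgeR adjusted p = 0.0357, 0.0325 and 0.0357), and none was called without run 1 (adjusted p = 0.225, 0.154 and 0.0684) or without run 4 (adjusted p = 0.0526, 0.089 and 0.0827).

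Intermediate responses were those of mt-Atp8, Cox6a1, Bclaf1, Nfia and a ribosomal protein pseudogene. Each had opposite signs in the 2 genotypes and missed the turned class by an effect under 0.5 (log2). Cox6a1, a nuclear-encoded subunit of cytochrome oxidase, had 197.5 to 296.3 CPM in WT control and 329.2 to 506.9 CPM in WT high-fat libraries, ranges that did not overlap. PparA went from 194.3, 339.6, 232.8 and 386.7 to 253.8, 247.8, 204.6 and 184.6 CPM, higher in run 1 and lower in the others. Its difference was −1.02 ± 0.22 (edgeR adjusted p = 0.0333) and −1.28 ± 0.25 without run 1 (adjusted p = 0.0384). The mitochondrially encoded ATP synthase subunit mt-Atp8, on the mitochondrial genome from 7766 to 7969, was lower on the diet in all 4 WT runs and higher in all 4 PparA runs, a difference of 0.98 ± 0.21 (adjusted p = 0.0265). Its reading frame overlaps that of mt-Atp6, and reads of the pair can be hard to assign. Nfia, a CAAT-box transcription factor, and Bclaf1, a nuclear regulator of splicing and transcription, had the same directions in every run (0.93 ± 0.21 and 0.65 ± 0.15, adjusted p = 0.045 and 0.0357). Without run 1 mt-Atp8, Nfia and Bclaf1 were not called (adjusted p = 0.317, 0.317 and 0.369), and without run 4 Nfia and Bclaf1 were not (0.153 and 0.0902).

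**Figure D3:**
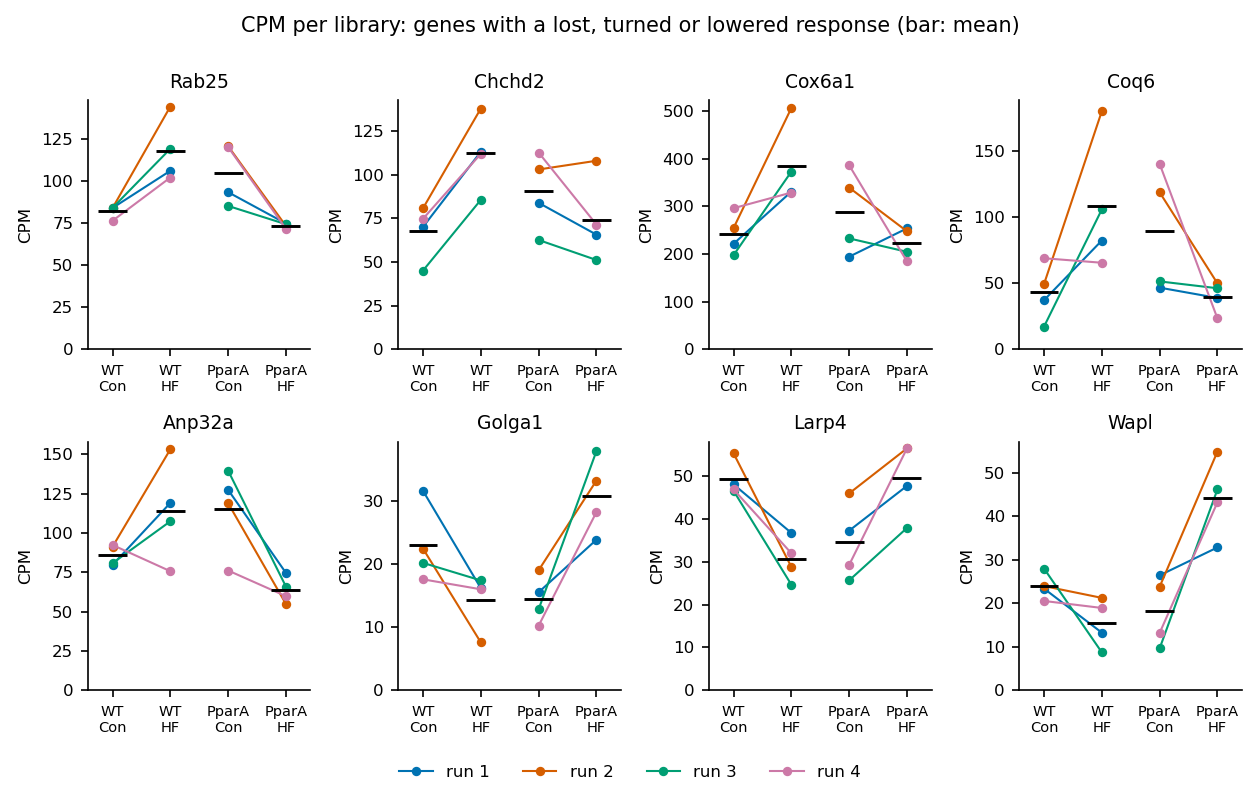
CPM (y axis) per library of Rab25, Chchd2, Cox6a1, Coq6, Anp32a, Golga1, Larp4 and Wapl in the 4 groups, with lines joining the control and high-fat libraries of the same run and black bars at group means. The lines of Rab25 rise in WT and fall in PparA in all 4 runs, and those of Golga1, Larp4 and Wapl fall in WT and rise in PparA.

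Pseudogenes made up 5 of the 22, and each shares most of its sequence with a ribosomal protein or chromatin protein gene, so that reads cannot be assigned to them with certainty. Of the 31-base words in its transcript, Rpl28-ps1 shared 100% with Rpl28 and Rpl31-ps8 shared 100% with Rpl31. Gm28911 shared 94.3% with Rpl8, Gm9794 92.1% with Rpl23 and Gm4739 90.2% with Hmgb2. Called protein-coding genes that were looked up shared less, but not all were free of it. The largest share with 1 other gene was 33.5% for Rps4x, 27.1% for Trmt112, 20.8% for Rpl28 and 16.5% for Chchd2. It was 4.0% for Hint1 and 0.0% for Rab25, and what such sharing does to their counts was not tested. Rpl28-ps1, Rpl31-ps8 and Gm9794 had counts in run 1 alone and were therefore set by 1 library a group. Rpl28-ps1 had 473.1 and 219.3 CPM in WT and 203.6 and 1194 CPM in PparA (control and high-fat library of run 1). Rpl31-ps8 had 173.3 and 132.5 CPM in WT and 188.1 and 0 CPM in PparA, and Gm9794 had 53.64 and 47.09 CPM in WT and 0 and 198.6 CPM in PparA. Among all genes tested, 9 had counts in 1 run only and these 3 were called. The parent genes Rpl31, Rpl23, Rpl8 and Hmgb2 had differences in diet response of −0.08, 0.10, −0.58 and −0.44 (edgeR adjusted p = 0.908, 0.881, 0.213 and 0.365).

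Promoter sequence was set beside these responses because PPARs bind a direct repeat of AGGTCA with a single base between the copies. Windows of 300 bases, from 250 before to 50 after the RefSeq start (GRCm38.p6), were searched on both strands for 3 motifs. The strict repeat was GGTCA, any base, then AGGTC; the loose repeat was GGNCA, any base, then AGGNC, where N is any base; the third was a lone AGGTCA, which can overlap either. Of 32851 promoters 0.155%, 2.14% and 16.3% held them. Looked up were 16 of the 17 called genes that are not pseudogenes, with Fabp1, Acadvl, Ech1 and Eci2. Of these 20 genes 16 had an entry, and 1, 2 and 3 of these held the motifs. A match is a description of the letters only. The promoters with a match are given below because 1 belongs to a gene with a gained response and the others to fatty acid genes called in WT; capitals mark the match described under each window, 5′ to 3′ on the strand of the gene.
Fabp1: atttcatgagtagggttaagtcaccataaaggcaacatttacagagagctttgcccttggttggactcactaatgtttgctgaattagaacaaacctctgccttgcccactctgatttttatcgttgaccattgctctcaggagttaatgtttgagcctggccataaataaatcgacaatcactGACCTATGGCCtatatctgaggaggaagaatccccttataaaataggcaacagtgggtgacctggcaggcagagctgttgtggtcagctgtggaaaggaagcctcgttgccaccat
Acadvl: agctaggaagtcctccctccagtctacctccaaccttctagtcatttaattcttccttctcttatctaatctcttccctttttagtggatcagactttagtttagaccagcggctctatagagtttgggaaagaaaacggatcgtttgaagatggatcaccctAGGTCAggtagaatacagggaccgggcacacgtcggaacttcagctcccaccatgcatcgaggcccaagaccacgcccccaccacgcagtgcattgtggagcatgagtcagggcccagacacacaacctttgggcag
Rps4x: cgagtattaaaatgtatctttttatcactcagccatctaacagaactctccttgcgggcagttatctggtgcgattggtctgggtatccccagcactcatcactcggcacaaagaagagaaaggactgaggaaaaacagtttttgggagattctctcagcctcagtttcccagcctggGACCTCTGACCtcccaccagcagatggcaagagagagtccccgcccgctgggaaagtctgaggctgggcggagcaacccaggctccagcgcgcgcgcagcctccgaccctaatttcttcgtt
The Fabp1 window is chr6:71199629-71199928 (plus strand), with the loose repeat on the opposite strand 66 to 56 bases before the start. A lone AGGTCA overlaps it, and another stands in lower case on the same strand as the match, between the match and the start. The Acadvl window is chr11:70015379-70015678 (minus strand), with a lone AGGTCA 87 to 82 bases before the start. The Rps4x window is chrX:102189342-102189641 (minus strand), with the strict repeat on the opposite strand 72 to 62 bases before the start, overlapped by a lone AGGTCA.

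No gene of mitochondrial fatty acid oxidation, a textbook target pathway of PPARα, was called for a different diet response in PparA. Of 20 members tested, 10 had a higher and 10 a lower diet response in PparA than in WT, with a median difference of −0.03 (log2) against 0.00 over all genes tested. At an unadjusted p under 0.05 there were 3 of the 20 (15%, against 9.64% of all genes tested), Etfdh, Acadvl and Eci1, each lower. Members' median diet effect was 0.53 in WT and 0.32 in PparA, and 4 members were called in WT against 0 in PparA, where 0.119% and 0.307% of all genes tested were called. Without run 1 the medians were 0.59 and 0.50, and the median difference was 0.01, again with 10 members on each side. A call in one genotype and not in the other is not a difference between them, and a p above the threshold does not show that the responses were alike.

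Fabp1, the liver-type fatty acid binding protein that carries fatty acids in the cytosol, had the widest gap among the PPAR targets named here. WT went from 166.4, 148.2, 157 and 99.76 CPM to 1260, 2216, 618.7 and 1679 CPM with the diet, and PparA from 259.6, 1203, 32.11 and 511.3 CPM to 221, 2124, 600.5 and 1299 CPM. In WT the groups stood apart. In PparA they overlapped, and the control libraries held values both below and above those of the WT control libraries. The diet effect was 3.24 ± 0.63 in WT (edgeR adjusted p = 0.024) and 1.11 ± 0.57 in PparA (adjusted p = 0.715), and the difference was −2.13 ± 0.83 (adjusted p = 0.365). Without Fabp1, itself a member, the enterocyte marker list summed to 3622, 8837, 3610 and 5851 CPM in the PparA control libraries and to 3343 to 3794 CPM in the WT control libraries. Among the PparA control libraries those of runs 2 and 4 were highest both in these markers and in Fabp1, and the markers' part in the result was not tested. Fewer cells of a type and less RNA per cell cannot be told apart in sorted bulk samples.

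Cpt1a and Angptl4, a lipase inhibitor, were highest among the PparA control libraries in library 5. Cpt1a had 43.53, 20.63, 17.66 and 16.11 CPM in PparA control and 22.4, 33.27, 57.74 and 44.89 CPM in PparA high-fat libraries, lower on the diet in run 1 and higher in the other 3. Angptl4 had 13.99, 1.587, 3.211 and 1.465 CPM, and then 1.493, 6.653, 16.5 and 3.325 CPM, with the same pattern. These Angptl4 values rest on few counts, and 3 counts correspond to 4.14 to 4.82 CPM. The Angptl4 difference in diet response was −1.46 ± 1.11 (edgeR adjusted p = 0.742), and 0.60 ± 1.25 without run 1.

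Enzymes of the β-oxidation cycle were closer between genotypes. Acadvl, the very-long-chain dehydrogenase, had 97.65, 70.38, 68.41 and 70.42 CPM in WT control, 126.6, 130.5, 129.2 and 192.3 CPM in WT high-fat, 90.16, 52.37, 88.31 and 87.9 CPM in PparA control and 71.66, 91.48, 123.7 and 108.1 CPM in PparA high-fat libraries. Its diet effect was 0.90 ± 0.15 in WT (edgeR adjusted p = 0.008) and 0.32 ± 0.16 in PparA, and the difference was −0.58 ± 0.22 (adjusted p = 0.364). Etfdh, which passes electrons from the dehydrogenases to ubiquinone, differed by −0.61 ± 0.19 (adjusted p = 0.231), from 0.60 in WT to −0.01 in PparA. Without run 1 the values were −0.59 and −0.60. Eci1 and Eci2, isomerases for unsaturated fatty acids, differed by −0.58 ± 0.28 and −0.48 ± 0.33 (adjusted p = 0.503 and 0.686), and Eci2 by −0.07 without run 1.

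Acaa2, the last thiolase of the cycle, and Ech1, a dienoyl-CoA isomerase, were higher on the diet in WT by 0.79 and 0.67 and stood at 0.52 and 0.36 in PparA, without a called difference (edgeR adjusted p = 0.761 and 0.564). Their differences were −0.27 and −0.31, and −0.13 and −0.21 without run 1. Hadha and Hadhb, the subunits of the trifunctional protein, had nearly equal diet effects, 0.59 and 0.47 in WT and 0.63 and 0.50 in PparA. This near-equality rests on run 1, without which the differences were 0.34 ± 0.20 and 0.19 ± 0.25 (edgeR adjusted p = 0.656 and 0.898). For the long-chain dehydrogenase Acadl the effects were 1.01 ± 0.43 and 1.79 ± 0.42, and for Cpt1a 1.09 ± 0.37 and 0.71 ± 0.36, and neither difference was called (adjusted p = 0.766 and 0.886). The 9 PPAR targets tested outside β-oxidation had a median difference of −0.50, 7 of them lower and 0 called, with 3 at an unadjusted p under 0.05 (1 higher and 2 lower). Their per-run medians were −0.36, 0.12, 0.20 and −0.23, so that 2 runs went each way, and without run 1 the median was −0.25 over 10 genes. Among them Retsat, a retinol saturase, differed by −0.50 ± 0.24 and the lipid droplet protein Plin2 by 0.44 ± 0.21 (adjusted p = 0.518 and 0.503), and by −0.58 and 0.24 without run 1. Peroxisomal oxidation genes split evenly, with 6 of 12 higher and a median of −0.03. Pdk4, a kinase that restrains pyruvate dehydrogenase, had at most 4.949 CPM in the 16 libraries and was not tested.

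**Figure D4:**
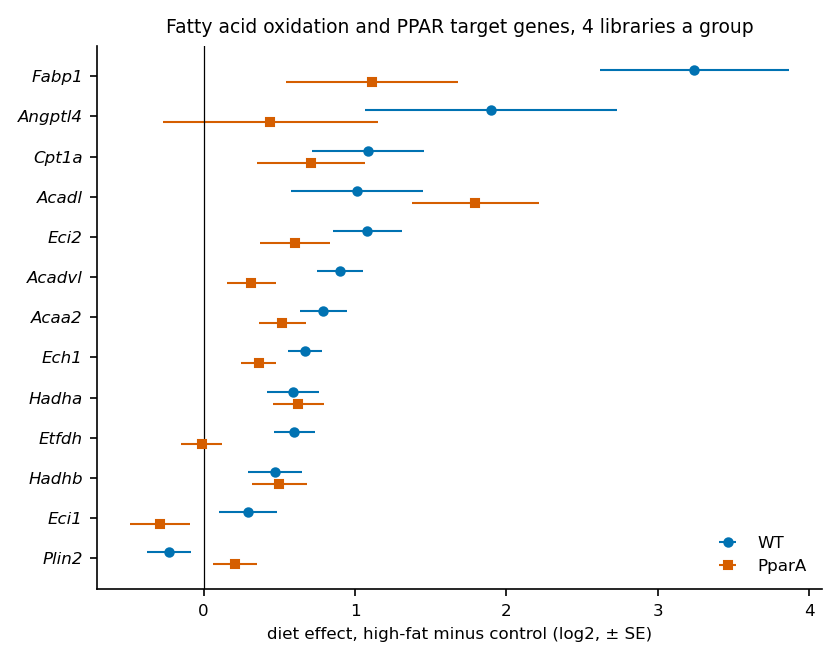
Diet effect (x axis, log2, high-fat minus control, bars ± SE) of 13 fatty acid oxidation and PPAR target genes in WT (circles) and PparA (squares), fitted over 4 libraries a group. Fabp1 shows the widest gap, 3.24 ± 0.63 against 1.11 ± 0.57, and Hadha and Hadhb nearly coincide.

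Cytosolic ribosomal protein genes as a group lay opposite to the 3 called members. Of 78 tested, 68 had a lower and 10 a higher diet response in PparA, with a median difference of −0.37 against 0.00 over all genes tested. At an unadjusted p under 0.05 there were 46 lower and 5 higher members, where 5.5% and 4.14% of all genes tested were lower and higher at that p. The 3 called members, Rpl28 and Rps4x among them, were all higher, and none was called lower. Members' median diet effect was 0.25 in WT and −0.10 in PparA. The median difference was negative in each run (−0.22, −0.52, −0.27 and −0.37), and −0.43 without run 1 and −0.35 without run 4.

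Summed over the 75 members that were not called, WT control libraries held 139300, 159800, 139000 and 173300 CPM and WT high-fat libraries 163400, 210900, 181400 and 162600 CPM, higher in runs 1 to 3 and lower in run 4. PparA control libraries held 156300, 167000, 151700 and 177500 CPM and PparA high-fat libraries 155800, 156100, 166600 and 146000 CPM. The groups overlapped in both genotypes. As for Rps4x, the WT direction changed in run 4, where place and run cannot be told apart. In WT 72, 77 and 75 of the 78 genes were higher on the diet in runs 1 to 3 and 22 in run 4. In PparA, whose order was the same in every run, 45, 25, 62 and 15 were higher in runs 1 to 4. How far the shift of this group belongs to place and not to diet was not tested. Genes of the early response to tissue dissociation, a sign of sample handling, summed to 114.2, 100.3, 113.5 and 161.4 CPM in WT control and 144.2, 160.9, 140.9 and 160.2 CPM in WT high-fat libraries. PparA control libraries had 144.6, 142.8, 147.7 and 149.4 CPM of them, and PparA high-fat libraries 123.9, 138, 135.3 and 129.7 CPM. WT was thus higher on the diet in runs 1 to 3 and PparA lower in all 4 runs. Of the 17 genes in that list 2 passed the filter and 3 had no count, and Btg2 alone averaged 62.9 CPM. The part of these genes in the result was not tested. Rps15a (−1.06 ± 0.30), Rpl6 (−0.49 ± 0.14) and Rpl21 (−0.51 ± 0.15) had the smallest p among members with a lower response (edgeR adjusted p = 0.139, 0.156 and 0.186).

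**Figure D5:**
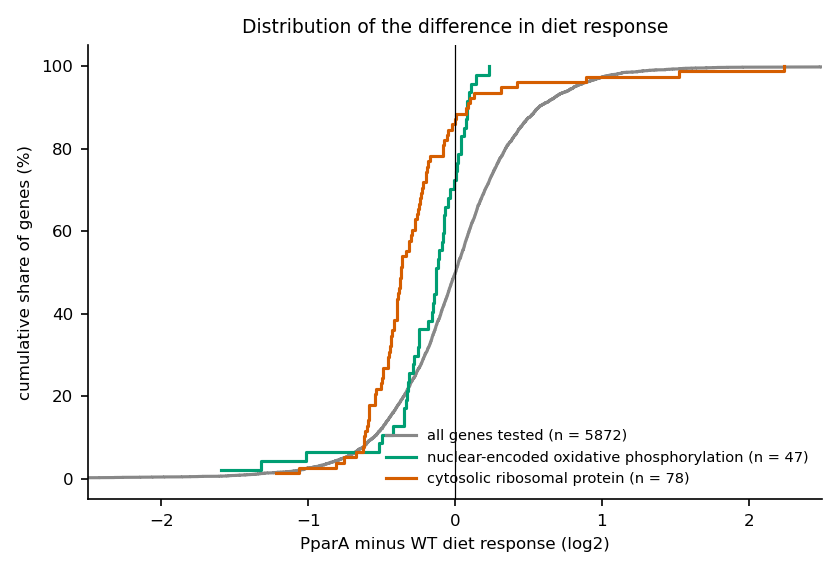
Cumulative share of genes (y axis, %) by difference in diet response, PparA minus WT (x axis, log2), for all 5872 genes tested, 47 nuclear-encoded oxidative phosphorylation genes and 78 cytosolic ribosomal protein genes. The ribosomal protein curve lies left of the others around its median of −0.37 and ends at Rpl28, at 2.24.

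Nuclear-encoded oxidative phosphorylation genes leaned the same way with smaller values. Of 47 tested, 34 were lower, 10 had an unadjusted p under 0.05 (21.3%, against 9.64% of all genes tested), all lower, and the median was −0.13; only Cox6a1 was called. The WT direction of this list also changed in run 4, with 33, 36 and 29 of the 47 genes higher on the diet in runs 1 to 3 and 14 in run 4. In PparA 28, 4, 13 and 13 of them were higher in runs 1 to 4. Cox8a, another cytochrome oxidase subunit, and Atp5d, a subunit of ATP synthase, differed by −1.32 ± 0.32 and −1.59 ± 0.41 without being called (edgeR adjusted p = 0.0678 and 0.0947). Without run 4 both were called (adjusted p = 0.00608 and 0.00369), and without run 1 neither was (adjusted p = 0.205 and 0.286). Cox8a was higher on the diet in WT by 0.69, 1.28 and 1.24 in runs 1 to 3 and lower, by −0.12, in run 4. Fitted by place without a term for diet, the second WT library exceeded the first by 0.80 ± 0.22 at Cox8a and 1.07 ± 0.28 at Atp5d (edgeR adjusted p = 0.143 and 0.114). Cox8a had 303.2 to 803.9 CPM in WT control, 687.3 to 1480 CPM in WT high-fat, 545.9 to 1197 CPM in PparA control and 379.1 to 628.7 CPM in PparA high-fat libraries. Mitochondrially encoded transcripts split into 7 higher and 8 lower of 15, with mt-Atp8 called higher. At an unadjusted p under 0.05 there were 7 of the 15 (46.7%, against 9.64% of all genes tested), 4 higher and 3 lower. The tricarboxylic acid cycle list had 12 of 20 lower and a median of −0.11, or −0.19 without run 1.

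Counted by gene, stem cell markers showed no shared shift. Of 20 stem cell markers tested 11 were higher and 9 lower, with a median of 0.01 and 0 called. The summed level of the list, led by Olfm4, was lower on the diet in every PparA run. It went there from 12940, 13260, 14690 and 16320 to 11990, 11640, 12970 and 13740 CPM. WT went from 12750, 14380, 10210 and 15620 to 13230, 15360, 13750 and 14690 CPM, higher in runs 1 to 3 and lower in run 4. Lgr5 had 30.26 to 66.02 CPM over the 16 libraries and a difference of −0.03 ± 0.32, and Olfm4 had 7270 to 13360 CPM and a difference of −0.40 ± 0.15 (edgeR adjusted p = 0.991 and 0.347). Slc12a2, a chloride cotransporter of crypt cells, differed by 0.82 ± 0.23 and Cdca7, a Myc-responsive cell-cycle gene, by −0.42 ± 0.14 (adjusted p = 0.156 and 0.236). Among 25 proliferation genes 14 were lower and the median was −0.05, or −0.18 with 20 lower when run 1 was left out.

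Markers of other epithelial cells differed between libraries of 1 group. Paneth cell markers had a median diet effect of 1.81 in WT and 1.05 in PparA, and 20 of 22 tested had a lower response in PparA, with a median difference of −0.81 and 0 called. Their summed level was 5086, 4733, 6047 and 18390 CPM in WT control and 54620, 17020, 8236 and 22470 CPM in WT high-fat libraries. PparA control libraries had 6288, 17230, 3269 and 19750 CPM and PparA high-fat libraries 9346, 37760, 6678 and 42180 CPM. Library 2, the WT high-fat library of run 1, held the most, and without run 1 the median difference was 0.30, with 15 of 22 markers higher. Goblet cell markers had median diet effects of 0.65 in WT and 0.51 in PparA, with a median difference of −0.29 over 12 genes, or −0.06 without run 1. All 6 MHC class II genes tested had a higher response in PparA (median 0.89) with 0 called. Their per-run medians were 1.45, 2.84, −0.32 and 1.86, with run 3 the other way, and H2-Eb1 ranged from 20.39 to 101.7 CPM within WT high-fat libraries alone. These marker levels moved beside the results above, and their part in them was not tested.

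The same genes were read in PparD (Ppard-fl/fl) and PparDA (Ppard-fl/fl with Ppara-null), whose differences from WT use the same 8 WT libraries and so are not independent of those above. In PparD 5 genes were called (0.0851%) and in PparDA 4 (0.0681%). The difference in diet response of Rpl28 was −0.79 ± 0.18 in PparD and −0.32 ± 0.18 in PparDA, against 2.24 in PparA, and that of Rps4x was −1.03 ± 0.22 and −0.45 ± 0.22, against 1.53. Trmt112 was at −0.19 and 0.00, Hint1 at 0.09 and 0.12. Rab25 was at −0.60 and −0.34, Coq6 at −0.79 and −1.04, and Chchd2 at −0.75 in both, each below 0 as in PparA and none called. On the high-fat diet PparDA libraries, also labelled Ppara-null, had 2138 to 2642 CPM of Rpl28, 7885 to 9836 CPM of Rps4x and 59.76 to 88.25 CPM of Trmt112, below every PparA high-fat library.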

How the data were processed

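The 32 libraries hold RNA of sorted GFP-Hi cells. The authors deposited expected counts per gene, which are whole numbers, and log2(CPM + 1) values, which served as a check only (they give sums of 1e+06 CPM). Salmon 1.1.0, R 4.0.2, edgeR 3.30.2 and mm10 stand in the submitters' processing notes, without roles. No source used here gives an annotation release or says whether molecular identifiers were used; without them reads are not independent molecules.

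Column names gave the group and a library number but no replicate number, and numbers 1 to 32 were split into 4 runs of 8. After group means were removed, 31 of 32 libraries correlated best with a library of their own run (same-run r of 0.0531 to 0.445 among the 16). Symbols came from GENCODE M21, which matched 54166 of 54418 identifiers.

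Genes were kept by filterByExpr over 8 groups (minimum count 10, minimum total 15), which left 5872 holding 97.07 to 97.63% of counts. A quasi-likelihood model with TMM factors (0.957 to 1.075), 1 coefficient per group and the run was fitted over all 32 libraries (edgeR 4.0.16, R 4.3.3), with a common biological coefficient of variation of 16.8%. Tests were two-sided and adjusted over all genes tested. The SE is the log2 value over the square root of F. Values are TMM-scaled CPM. Tested on simulated data (5764 genes), the model called 5% of genes given a 1.5-fold difference in diet response, 40% at 2-fold and 67.3% at 4-fold. It called 3 of 5564 genes given none. Simulated counts were drawn independently with the fitted spread of each gene, without a place effect or outlying libraries. How far these shares hold for the real libraries was not tested. DESeq2 1.42.0 and limma 3.58.1 were alternatives.

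Named genes were called genes of at least 10 CPM outside pseudogenes (up to 15 a direction), up to 12 called genes per diet effect, fixed PPAR and stem cell genes, and up to 3 of each of 31 lists with the smallest p. Some of these genes are given in counts only or are not reported here. The comparison and the lists were chosen with earlier results of these data known.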

Additional observations from a re-analysis of the deposited data

Results flagged for a closer look

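Within groups of 4 libraries, 28 of 206 gene and group combinations had 1 library far from the others by Dixon's ratio of gap to range; chance flags about 1 in 20 such groups. No explanation was tested. At Rps4x, library 26 (WT control, run 4) stood highest at 9653 CPM and library 25 (WT high-fat, run 4) lowest at 5313 CPM. Library 26 was also apart at Rab25 (76.29 CPM, the lowest), Eci2 (88.02 CPM), Defa29 (396.1 CPM) and Mptx2 (71.89 CPM, with Defa29 a Paneth cell marker), each of these 3 the highest. Library 5 (PparA control, run 1) was highest at Cpt1a (43.53 CPM) and Angptl4 (13.99 CPM). Acadvl was apart in library 13 (52.37 CPM, lowest), library 1 (97.65 CPM, highest) and library 25 (192.3 CPM, highest).

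Library 10 (WT high-fat, run 2) was highest at Cox8a (1480 CPM) and Atp5d (944.1 CPM) and lowest at Golga1 (7.589 CPM). Library 14 was lowest at Eif3h (196.3 CPM) and library 22 highest at Plin2 (242.5 CPM). Library 18 was highest at H2-Eb1 (101.7 CPM) and H2-Ab1 (127.8 CPM). The other 10 cases are the pseudogenes counted in run 1 alone: Rpl28-ps1 (473.1, 219.3, 203.6 and 1194 CPM in libraries 1, 2, 5 and 6), Rpl31-ps8 (173.3, 132.5 and 188.1 CPM in libraries 1, 2 and 5) and Gm9794 (53.64, 47.09 and 198.6 CPM in libraries 1, 2 and 6).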

How the results depend on the processing

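Counts of calls moved with the samples and the model more than with the scaling. The numbers below are for the difference in diet response, the WT diet effect and the PparA diet effect, against 22, 7 and 18. Without the replicate block (the run factor) they were 9, 6 and 8, all 9 among the 22, and the common coefficient of variation was 21.7%. Sample titles carry replicate numbers but the count columns do not, so the block is the run of library numbers. Same-run correlations were not all over 0.1, and the pairing is a hint from the data. With only the 16 WT and PparA libraries they were 6, 0 and 10, and without the filter on low counts 124, 116 and 120. Runs 1 and 3 alone gave 10, 20 and 10, and runs 2 and 4 alone 2, 5 and 11. Without run 4 they were 46, 101 and 15, and without run 1, an alternative chosen after the data were seen, 5, 4 and 20. DESeq2 gave 70, 43 and 19, with an adjusted p for only 522 genes in the first comparison and NA for the rest, and 6 of the 70 among the 22. A robust prior gave 28, 4 and 24, and library totals without TMM factors (also chosen afterwards) 23, 4 and 17. The cause of these moves was not tested, apart from fewer samples or more genes by construction.

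Leaving out 1 library at a time gave 9 to 89, 0 to 45 and 12 to 19 calls; 89 and 45 came without library 26, and 0 in WT without library 10 or 17. Rpl28, Rps4x, Trmt112, Hint1, Rab25 and Anp32a were called in all 16 of these fits, Coq6 in 15, Chchd2 in 10, and Golga1, Bclaf1, Gm4739 and Nfia in 4.

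Among uncalled genes the sign of the difference turned for Lgr5 (0.0046 with a minimum count of 30, 0.26 in runs 2 and 4, 0.12 without run 1), Hadha (−0.074 in runs 1 and 3, −0.024 without run 4), Hadhb (−0.16 in runs 2 and 4, −0.044 without run 4), and Angptl4 (0.60 without run 1). With 1 library left out, Hadha ranged from −0.11 to 0.34, Hadhb from −0.23 to 0.24, Lgr5 from −0.19 to 0.10 and Rpl31-ps8 from −8.11 to 0.069 (without library 6). The median of ribosomal protein genes was negative in every scaling and leave-one-out fit tried, that of Paneth cell markers was not (0.01 in runs 2 and 4). No gene's difference in diet response was called by edgeR as unlike between runs 1 and 3 and runs 2 and 4 (220 genes at an unadjusted p under 0.05). By Xist and Ddx3y these pairs of runs also differ in sex. With so few libraries of each group in a pair, the lack of calls does not show that the responses were alike. At these depths 3 counts correspond to 4.14 to 4.82 CPM, so Ppara and Pdk4 lie near the limit of detection.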
